A study of Bos taurus with 13 samples.

Results

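CAV1, EMCN and CD300LG are a caveolar gene and a pair of endothelial genes named on a bovine mammary cDNA microarray, and 4 clones stood for them among 1296 clones on the platform. The clones were taken by gene symbol in the platform annotation, and the genes were chosen with earlier results of these data known. 2 clones named CAV1, through the expressed sequence tags (ESTs) BE477622 and BE484461, 1 named EMCN (BE487271) and 1 named CD300LG (BE478771). Each clone was spotted 3 times, so 12 of 3888 spots were read, and all 12 had a value on all 13 arrays. In all, 846 clones had 1 named gene, for 706 genes. The symbols matched the RefSeq gene table of assembly ARS-UCD2.0, which lists 4 transcripts for CAV1, 5 for EMCN and 11 for CD300LG. Which transcripts, or which stretch of them, an EST covers was not analysed here.

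Caveolin-1, the product of CAV1, is the main coat protein of caveolae, the flask-shaped pits of the plasma membrane. It is abundant in endothelium but also in adipocytes, smooth muscle and fibroblasts, so it marks no single cell type. EMCN encodes endomucin, a sialomucin on the luminal face of capillaries and venules that hinders the contact of leukocytes with the vessel wall. CD300LG encodes nepmucin, a receptor with an immunoglobulin-like and a mucin-like domain that in mouse lies on endothelium, high endothelial venules of lymph nodes included, and binds lymphocytes.

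On 8 two-colour arrays the total RNA of 1 bovine tissue met that of the cell line BovMac. The tissues were ileum, liver, adipose and adrenal tissue, 3 lymphoid tissues (spleen, thymus and one labelled lymph), and mammary gland from a prepubertal Holstein heifer weighing 136 kg. 2 arrays paired lactating mammary gland with prepubertal gland of a Holstein heifer, of 136 kg on array 1 and of 227 kg on array 2. For array 2 the title and source call the heifer gland prepubertal, whereas a keyword says post-pubertal. 1 array held postpubertal gland (310 kg) and prepubertal gland (136 kg), and on 2 arrays both channels held the reference cell line, spelled BovMav in the label of the first. The labels used here give no age, no stage of lactation and no animal for the other tissues, nor whether RNA was pooled or shared between arrays. A value below is the log ratio of a spot, centred on the median of its array. The base of the logarithm is not given, so 1 unit is 2-fold in base 2 and 2.72-fold in natural log.

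The labels name the RNA in each channel, but the dyes and which channel stands on top of the ratio are not given, so positive and negative on the tissue arrays say only on which side a clone lay, and all signs there may be turned together. On the lactating arrays the side of the caseins is likely the side of lactating gland. There the 6 clones of CSN1S1 (alpha-S1 casein) averaged 1.62 to 2.78 and the 3 of CSN2 (beta-casein) 0.58 to 0.94. By the labels, the tissue RNA of the tissue arrays was not in the channel that held lactating gland. If all arrays shared the same ratio direction, the tissue side would then be the negative one. Words such as low and high for the tissue arrays therefore refer to the ratio only, not to transcript amount. The arrays differed in quality. Repeat spots of the same clone correlated across clones at Spearman rho of 0.53 to 0.85 on the tissue arrays and 0.66 and 0.71 on the lactating arrays, but 0.06 on the postpubertal array, and 0.57 and 0.12 on the reference against reference arrays. Of 10 endothelial marker genes listed (PECAM1, CDH5, VWF, KDR, FLT1, TEK, TIE1, CLDN5, EMCN and ESAM), EMCN alone was named on the platform, so these arrays could not show whether the 3 genes followed endothelial content.

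On the lactating arrays CD300LG lay on the side opposite the caseins, while neither CAV1 clone nor EMCN passed the test. The 3 CD300LG spots read -0.53, -0.72 and -0.55 on array 1, and -1.03, -1.28 and -1.37 on array 2. All 6 lay below 0, and those of array 2 lay farther from 0 than those of array 1 without overlap. With the reference cell line in both channels the same spots lay between -0.13 and -0.09 on array 1 and between -0.01 and 0.01 on array 2. No lactating spot overlapped them. On reference against reference array 2, however, repeat spots agreed little (Spearman rho of 0.12). The median SD over spots was 0.31 there, against 0.014 for CD300LG, so its values near 0 are a weak baseline. The mean over the lactating arrays was -0.91 ± 0.44 (SD, n = 2), negative on 2 of 2 arrays, with a 95% interval of -1.33 to -0.50 and an adjusted p of 0.0104 by limma over 1230 clones. If the casein side is that of lactating gland, CD300LG was lower in lactating than in prepubertal gland. The labels do not say that the lactating RNA came from separate animals, so the p-value covers no known spread between animals. It and the interval rest on 1 residual degree of freedom from these arrays and 8.42 prior degrees of freedom pooled over clones. In bulk tissue, fewer cells that carry a transcript and less of it per cell cannot be told apart.

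1 of the 4 clones was thus called, against 12.8% of all clones, and 4.31% of all clones were called on the negative side. CD300LG had the 12th lowest mean of the 1230 clones and the 9th lowest of the 53 called on that side. Its array means were -0.60 and -1.23, and array 2 (heifer of 227 kg) minus array 1 (heifer of 136 kg) was -0.63. With 1 array each this difference was not tested. Only 4.73% of clones were lower than CD300LG on array 1 and 1.22% on array 2.

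The call did not hold under every processing. It was lost in 6 of 11 alternatives, with adjusted p by limma from 0.000472 to 0.377 over the 11, although the mean stayed negative in all of them. Without array 1 the mean was -1.23 (adjusted p = 0.0575, limma), without array 2 it was -0.60 (adjusted p = 0.377, limma), and relative to the arrays with reference RNA in both channels it was -0.86 (adjusted p = 0.213, limma).

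**Figure D1:**
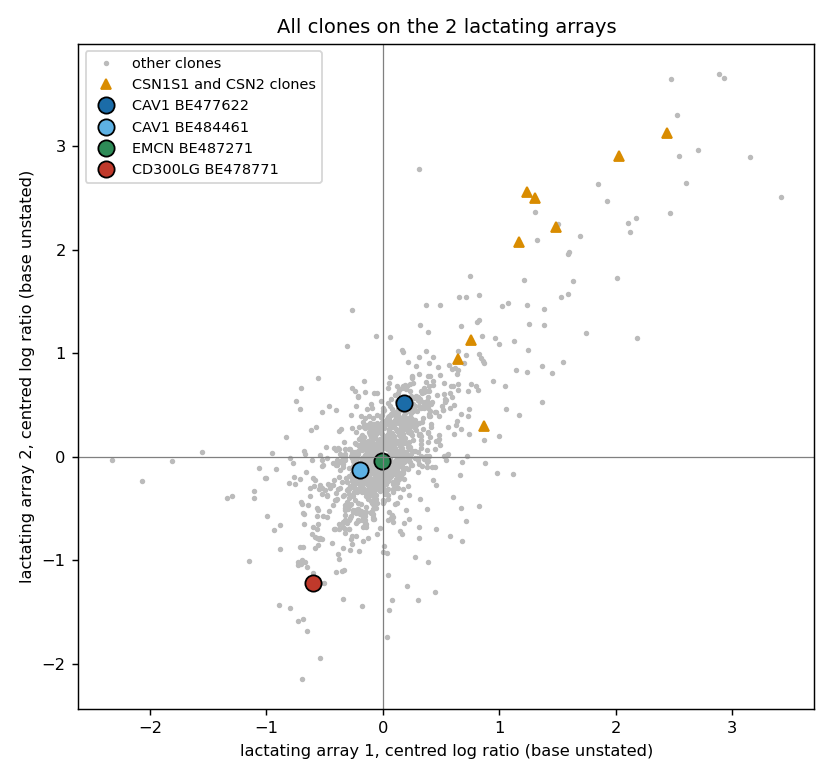
Centred log ratio of every clone on lactating array 1 (horizontal) and lactating array 2 (vertical), both in log units of unstated base, with the 4 clones of the caveolar and endothelial genes as large circles and the CSN1S1 and CSN2 clones as triangles. CD300LG lies at -0.60 and -1.23, opposite the casein clones, whereas EMCN lies near 0 on both arrays and the 2 CAV1 clones lie on opposite sides of 0.

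EMCN stayed near 0. Its spots read 0.07, 0.17 and -0.25 on lactating array 1, and -0.05, -0.22 and 0.15 on array 2, so they spread over both sides of 0 on each. The mean was -0.02 ± 0.03 (SD, n = 2), with a 95% interval of -0.37 to 0.33 and an adjusted p of 0.956 by limma. The interval excludes a mean as far from 0 as that of CD300LG, and the test of EMCN against CD300LG itself was not run.

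The 2 CAV1 clones parted on these arrays. The spots of BE477622 read 0.26, 0.18 and 0.11 on array 1, and 0.29, 0.36 and 0.89 on array 2, all above 0. Those of BE484461 read -0.20, -0.18 and -0.21 on array 1, and -0.36, 0.02 and -0.05 on array 2, of which 5 lay below 0. The spots of the clones did not overlap on either array. BE477622 averaged 0.35 ± 0.23 (SD, n = 2; 95% interval -0.02 to 0.72, adjusted p = 0.207 by limma) and BE484461 -0.16 ± 0.05 (SD, n = 2; 95% interval -0.51 to 0.19, adjusted p = 0.564 by limma). CAV1 therefore had no single value for lactation here, and neither clone was called. Relative to the arrays with reference RNA in both channels, BE477622 was at 0.73 (95% interval 0.07 to 1.39, adjusted p = 0.264 by limma) and BE484461 at 0.11. On the reference against reference arrays, BE477622 lay at -0.11 on array 1 and -0.65 on array 2, and BE484461 at -0.07 and -0.47, with an SD over spots of 0.67 and 0.65 on array 2. With the same RNA in both channels, both clones thus lay as far from 0 on that array as on the lactating ones, or farther.

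On the array of postpubertal and prepubertal gland the mean of each clone lay within 1 SD of 0. BE477622 was at 0.15 with an SD over 3 spots of 0.23, BE484461 at 0.08 with an SD of 0.38, EMCN at -0.06 with an SD of 0.13 and CD300LG at -0.01 with an SD of 0.05. This array had the lowest agreement between spots of the 13, and with 1 array there is no replicate check.

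**Figure D2:**
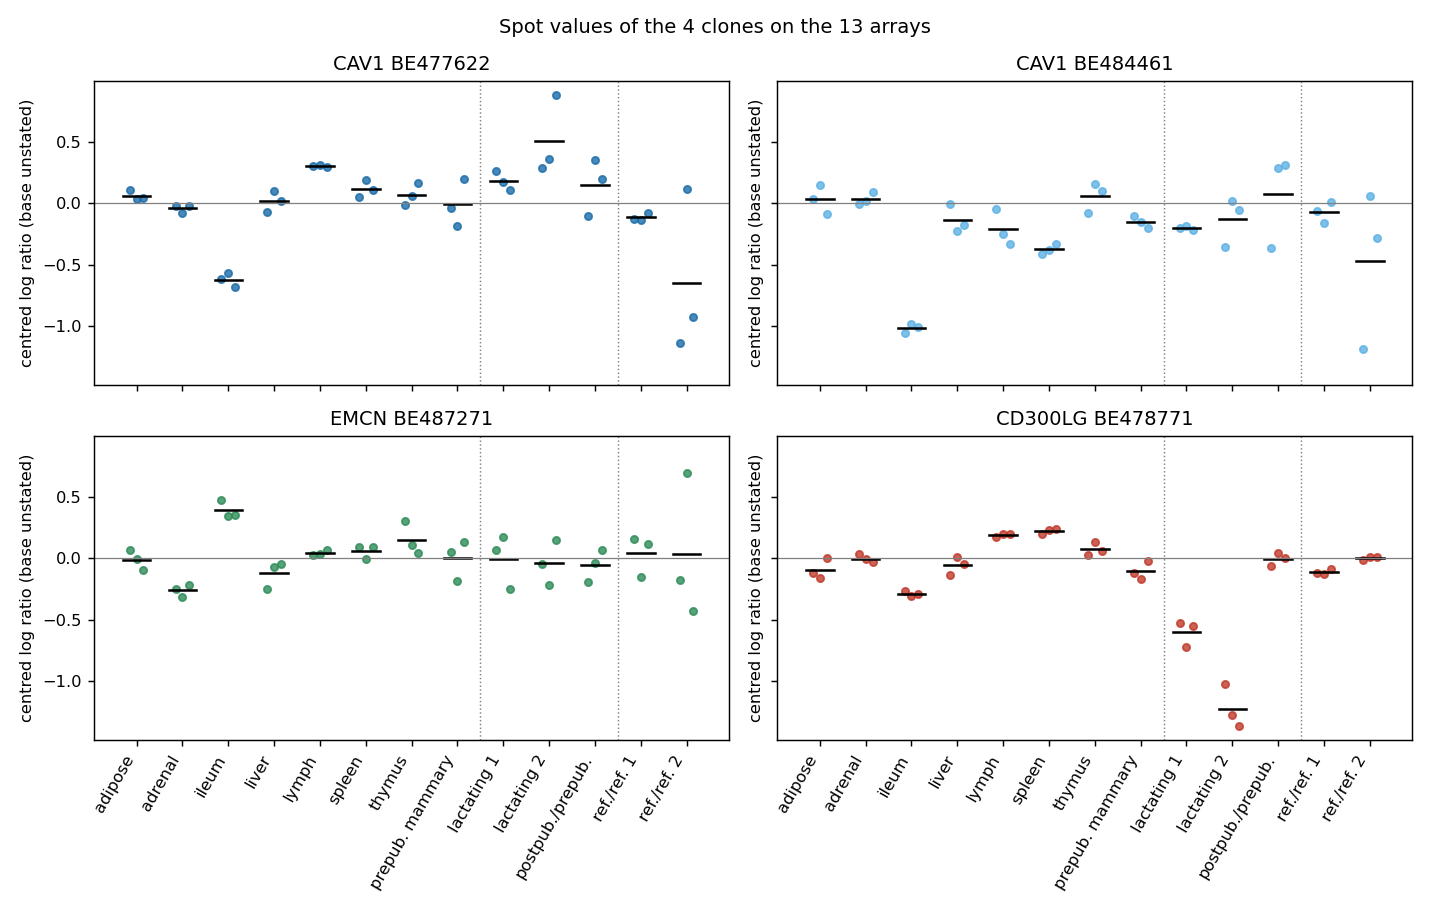
Centred log ratio (vertical, base unstated) of the 3 spots of each clone (points) and their mean (bars) on the 8 tissue arrays, the 2 lactating arrays, the postpubertal and prepubertal array and the 2 reference against reference arrays (horizontal). Of the 8 tissues, both CAV1 clones have their most negative ratio in ileum (means of -0.62 and -1.01) and EMCN its most positive (0.39). CD300LG is lowest on the 2 lactating arrays.

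Across the tissues, ileum set all 4 clones apart. Both CAV1 clones and CD300LG had their most negative ratio of the 8 tissues there, and EMCN its most positive. The spots of BE477622 read -0.62, -0.57 and -0.68 in ileum, with a mean of -0.62, against -0.04 to 0.30 for its means in the other 7 tissues. Those of BE484461 lay between -1.05 and -0.98 in ileum, with a mean of -1.01, against -0.37 to 0.06 in the other 7. In both clones the ileum spots lay below all spots of the next tissue, by 0.58 and 0.64 units between means. Both clones shared this, but ileum was the lowest of the 8 tissues for 26.8% of 1216 clones. That share limits what their agreement says of CAV1.

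EMCN spots read 0.48, 0.35 and 0.35 in ileum (mean 0.39), above the 7 other tissues at -0.26 to 0.15. CD300LG spots read -0.26, -0.31 and -0.29 there (mean -0.29), below the other 7 at -0.10 to 0.22. With all signs turned, EMCN and CAV1 would still lie on opposite sides. With 1 array per tissue none of these differences could be tested.

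Ileum was a wide array. It was the lowest of the 8 tissues for 26.8% of 1216 clones and the highest for 24.3%, and the SD over clones was 0.56 there against 0.18 to 0.29 on the other tissue arrays. Within the ileum array 11.8% of clones were lower than CAV1 BE477622, 5.08% than BE484461 and 22.8% than CD300LG, while 87.5% were lower than EMCN. Of the 4 clones 1, BE484461, lay at least 1 unit from 0 in ileum, where 8.56% of all clones did. 0 of the 4 did in another tissue, where the share of all clones was 0.243% in adipose tissue, 0.323% in adrenal tissue, 0.484% in liver, 0.563% in lymph tissue, 0.242% in spleen, 0.242% in thymus and 1.28% in mammary gland. With every array scaled to the same spread, the ileum values shrank to -0.45 and -0.73 for CAV1, 0.28 for EMCN and -0.21 for CD300LG. Ileum remained the lowest or highest of the 8 for each clone, although CD300LG then lay only just below the next tissue, at -0.17.

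Without ileum the clones varied little. Their ranges over the other 7 tissues were 0.34 and 0.43 units for CAV1, 0.41 for EMCN and 0.33 for CD300LG. The median clone of the platform had a range of 0.44, and 75.7%, 51.7%, 57.2% and 79.7% of clones were wider. In prepubertal mammary gland all 4 lay close to 0, at -0.01 (BE477622), -0.15 (BE484461), 0.0018 (EMCN) and -0.10 (CD300LG).

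The order of the tissues differed between the clones. For CAV1 BE477622, lymph tissue came first at 0.30, with spots at 0.30, 0.31 and 0.30, above all spots of spleen (0.12). Spleen was followed by thymus (0.07), adipose tissue (0.06), liver (0.02), mammary gland (-0.01) and adrenal tissue (-0.04), and the spots of each of these overlapped those of the next. For BE484461 the same lymph tissue RNA lay at -0.21 and spleen at -0.37, the lowest but for ileum. Above them thymus (0.06), adrenal tissue (0.04), adipose tissue (0.04), liver (-0.13) and mammary gland (-0.15) were neighbours with overlapping spots, and lymph tissue overlapped mammary gland too.

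EMCN came next after ileum in thymus (0.15), spleen (0.06), lymph tissue (0.04), mammary gland (0.0018), adipose tissue (-0.01) and liver (-0.12). Its lowest value was in adrenal tissue, with spots at -0.25, -0.32 and -0.22 and a mean of -0.26, where 5.33% of clones were lower. The spots of all neighbours below ileum in this order overlapped. CD300LG had its most positive ratios in spleen, with spots at 0.20, 0.23 and 0.24 (mean 0.22), and in lymph tissue, with spots at 0.17, 0.20 and 0.19 (mean 0.19). These tissues overlapped each other narrowly and lay above all spots of thymus (0.07). Adrenal tissue (-0.0035), liver (-0.06), adipose tissue (-0.09) and mammary gland (-0.10) followed with overlapping spots.

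The lymphoid values were also set beside those of clones next in the deposited order. That order largely follows the accession of the ESTs, and slide coordinates were not used. Clones that follow each other in the table had Spearman rho of 0.55 on the lymph array and 0.51 on the spleen array, against 0.18 to 0.39 on the other tissue arrays and 0.12 and 0.11 on the lactating arrays. Of the 3 clones before and 3 after CAV1 BE477622, all 6 were positive in lymph tissue, with a mean of 0.22 beside its own 0.30. All 6 around CD300LG were positive there too, with a mean of 0.16 beside its 0.19. In spleen 3 of the 6 around CD300LG were positive, with a mean of 0.05 beside its 0.22, and 4 of the 6 around BE477622, with a mean of 0.11 beside its 0.12. In ileum the 6 neighbours ran from -0.24 to 0.66 around BE477622, from -0.56 to 0.24 around BE484461 and from -0.14 to 0.39 around CD300LG, above the clone in each case, but from -0.22 to 0.41 around EMCN, which lay within. On the lactating arrays CD300LG lay below its neighbours, which ran from -0.16 to 0.87 on array 1, where 1 of 6 was negative, and from 0.05 to 0.90 on array 2. BE477622 lay within its neighbours there, at 0.18 and 0.51 beside neighbour means of 0.26 and 0.39. EMCN lay within on both arrays, and BE484461 within on array 2 but below on array 1. The part of this order in these values was not tested.

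The disagreement of the CAV1 clones had its like in other genes. BE477622 exceeded BE484461 by 0.51 units in lymph tissue, 0.49 in spleen, 0.39 in ileum, 0.38 on lactating array 1 and 0.64 on lactating array 2, and the spots of the clones did not overlap on any of these. In adrenal tissue the spots did not overlap either, but BE477622 was the lower, by a difference of -0.08. In thymus, adipose tissue, liver and mammary gland the spots overlapped, with differences of 0.01 to 0.15 units. Over all 73 genes with more than 1 EST, 10.6% of pairs were farther apart in lymph tissue, 12.9% in spleen, 36.5% in ileum, and 36.9% and 27.7% on lactating arrays 1 and 2. The median pair of ESTs of 1 gene differed by 0.25 units in lymph tissue, and the median of all pairs of named ESTs by 0.22. In ileum these medians were 0.31 and 0.35. Across the 8 tissues the CAV1 clones correlated with a Pearson r of 0.76 (Spearman rho 0.02), and without ileum r was -0.44. The median r over 84 such pairs of ESTs was 0.03, with quartiles of -0.27 and 0.54. Over the 8 tissues the median pair thus agreed little, while the CAV1 pair lay above the upper quartile. Its r was negative without ileum, where the other pairs were not read.

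**Figure D3:**
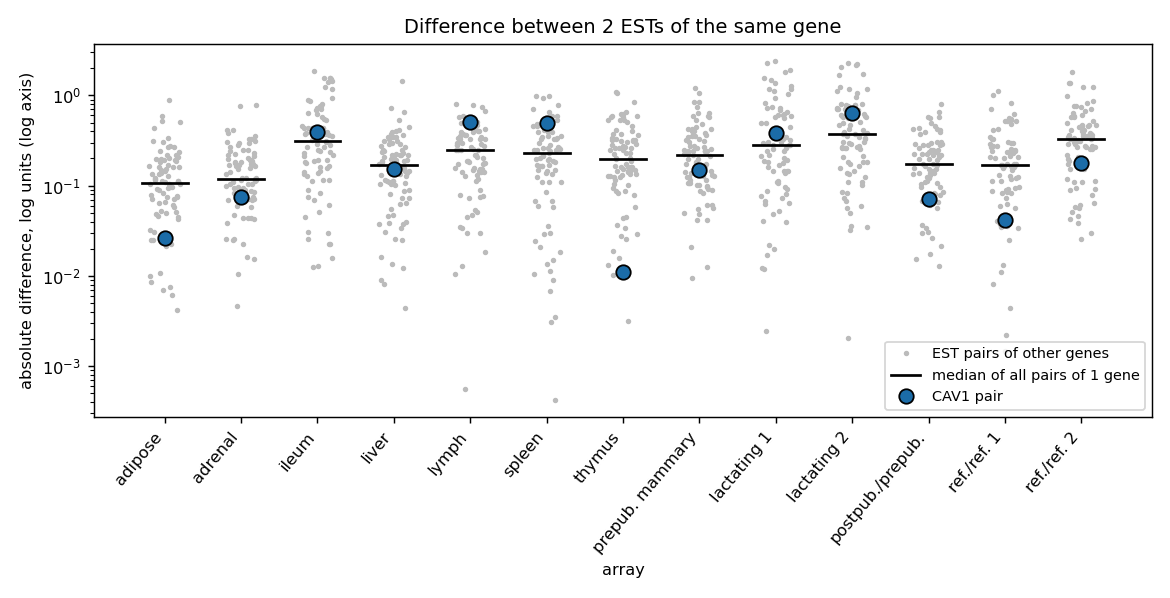
Absolute difference between 2 ESTs of the same gene on each of the 13 arrays (vertical, log units on a log axis), with 1 grey point for each pair of other genes, a bar at the median of all pairs and a large circle for the CAV1 pair. The CAV1 pair lies above the median in ileum, lymph tissue, spleen and on both lactating arrays, and below it elsewhere.

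The 3 genes did not move as a unit over the tissues. Over the 8 tissue arrays, all with the cell line BovMac as reference, EMCN ran against CAV1, with a Pearson r of -0.57 (BE477622) and -0.76 (BE484461). Without ileum r was 0.53 and -0.24, so the first changed sign. CD300LG went with CAV1 BE477622 at r of 0.83, and 0.73 without ileum, but r with BE484461 was 0.44, and -0.58 without ileum. CD300LG and EMCN had r of -0.31, and 0.43 without ileum. With the CAV1 pair, 4 of the 6 pairs of clones changed sign when ileum was left out.

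The clones most like each one over the 8 tissues were picked by Pearson r among 833 clones of named genes. For CAV1 BE477622 these were CCT4, a chaperonin subunit (r 0.96), PCNA, the DNA polymerase clamp (0.95), and DDX5, an RNA helicase (0.94). For BE484461 they were PAICS, an enzyme of purine synthesis (0.97), MRPL30 of the mitochondrial ribosome (0.97) and EIF4B, a translation factor (0.96). All 6 were also negative in ileum, between -1.18 and -0.39. For EMCN they were 2 clones with the same ACTB accession, the beta-actin gene (0.97 each), and SDC2, a heparan sulfate proteoglycan (0.97). ACTB had 50 clones, whose r with EMCN ran from -0.13 to 0.97, so such likeness varies within a gene. For CD300LG they were IFI16, an interferon-inducible DNA sensor (0.96), ARMCX3 (0.92) and RBM47, an RNA-binding protein (0.90). Without ileum IFI16 and ARMCX3 stayed among the 3 most like CD300LG (r 0.92 and 0.93), whereas none of the 3 stayed for the other clones. The highest of 833 values of r over so few arrays are high by the choice itself. The arrays without ileum were also among the 8 that made the choice, so staying is no separate check.

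Few relatives of these genes were on the platform. Of 38 endothelial genes listed, EMCN, CD300LG, CD36 and A2M were measured, each by 1 clone. CD36, a fatty acid transporter of capillaries, adipocytes and mammary epithelium, passed on the casein side, at 0.85 and 1.17 on the arrays and a mean of 1.01 ± 0.22 (SD, n = 2; adjusted p = 0.00333 by limma). CD36 and CD300LG, 2 of the 4 clones, thus passed in opposite directions, beside 12.8% of all clones. On the reference against reference arrays CD36 was also positive, at 0.20 and 0.28. Its call under the alternatives is not given here. A2M, a plasma protease inhibitor, lay at -0.71 and 0.46 and did not pass (adjusted p = 0.804, limma). The median of the 4 clones was -0.08, beside -0.0061 over all clones tested. In ileum CD36 was at 0.53 and A2M at 0.04.

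Of 21 genes of caveolae and their partners, CAV1 and PACSIN2, a membrane-bending protein of caveolar necks, were measured by 2 clones each. 0 of these 4 clones passed in limma, where 12.8% of all clones did, and 0 had an unadjusted p under 0.05, where 338 of 1230 did. With 4 clones, these counts do not set the list apart from the other clones. PACSIN2 averaged 0.08 ± 0.23 and -0.16 ± 0.26 (SD, n = 2) in its clones BE481746 and BG689055. In ileum PACSIN2 lay at 0.01 and -0.27, nearer 0 than either CAV1 clone. CD300LG was the only measured gene of 15 in the CD300 and polymeric immunoglobulin receptor list. Of 13 sialomucins EMCN and MUC1, an epithelial mucin, were measured, and MUC1 averaged -0.10 ± 0.14 (SD, n = 2; adjusted p = 0.761 by limma).

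Markers of other cells spread widely on the ileum array. Of 10 stroma genes 2 were measured, and all 3 of their clones were negative there, COL5A2 (a fibrillar collagen) at -0.68 and POSTN (periostin) at -1.81 and -1.23. Of 9 smooth muscle genes 3 were measured, with TPM1 at -0.72, ACTG2 at 0.04 and MYH11 at 0.28. The 5 clones of 3 epithelial genes (of 7 listed) lay between 0.02 and 1.94, EPCAM the highest. EPCAM also read 1.51 on reference against reference array 2, where both channels held the same RNA. The 4 leukocyte genes of 8 lay between 0.10 and 2.41, CD74 the highest. 0 of 8 adipocyte genes and 0 of 7 macrophage genes were on the platform. The part of these cells in the ileum values of CAV1, EMCN and CD300LG was not tested.

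On the lactating arrays COL5A2 passed on the casein side at 0.57 ± 0.06 (SD, n = 2; adjusted p = 0.042 by limma), and no other of the 15 marker clones of stroma, smooth muscle, epithelium or leukocytes passed, beside 12.8% of all clones. Their means ran from -0.28 to 0.16 for smooth muscle, from -0.26 to 0.57 for stroma, from -0.41 to 0.30 for epithelium and from -0.53 to 0.08 for leukocytes. RAC2, a leukocyte GTPase, was the lowest of these at -0.53 (adjusted p = 0.0883, limma). CD300LG at -0.91 lay below every one of them, and their part in its value was not tested.

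**Figure D4:**
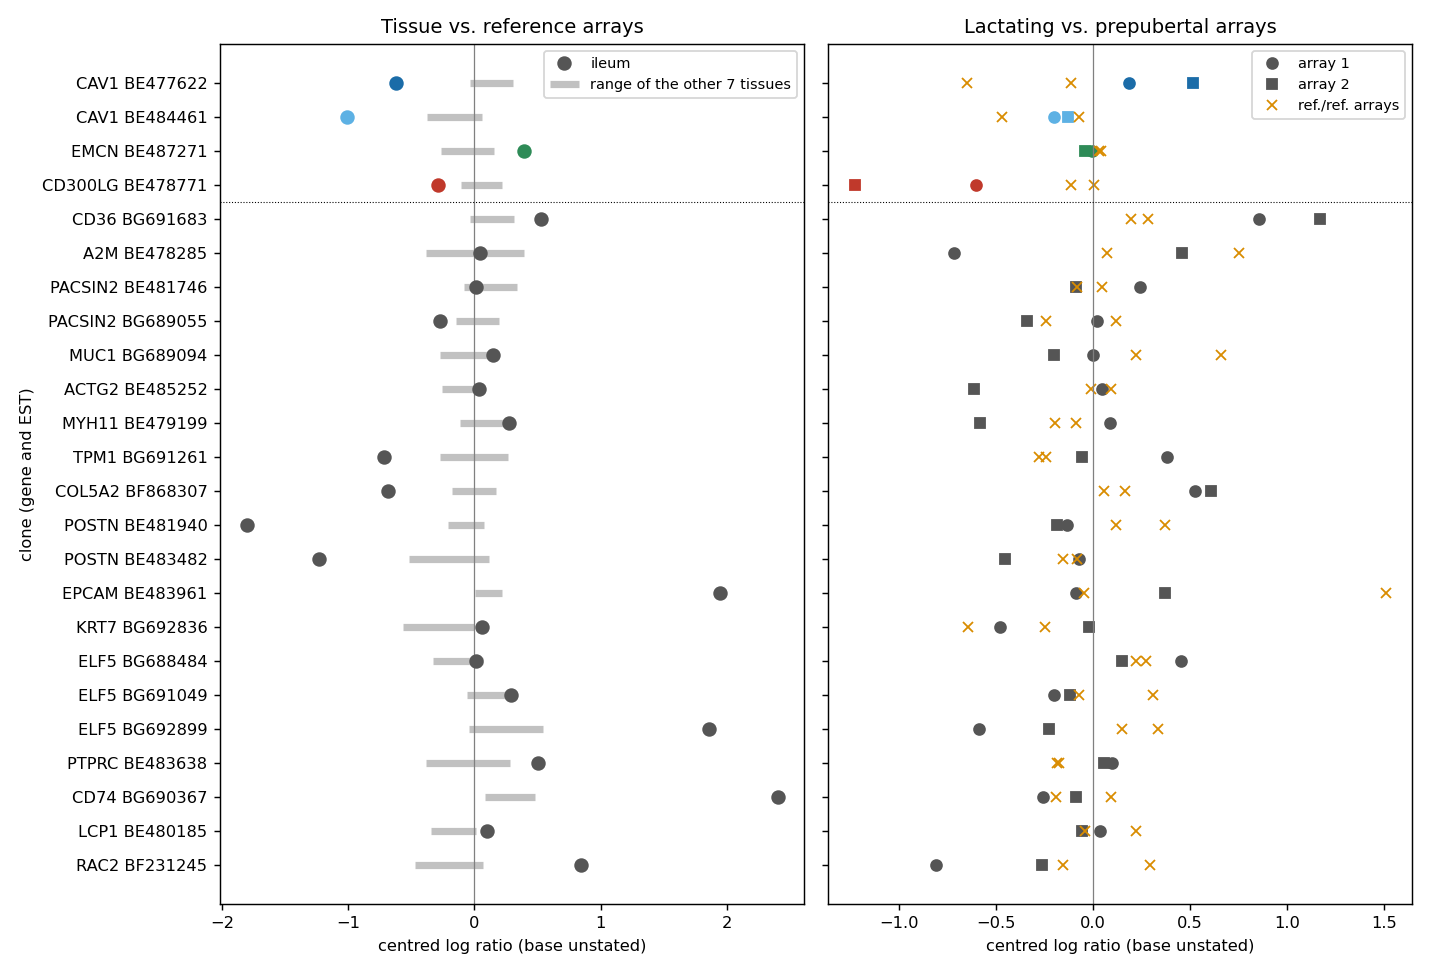
Left, the ileum value of each clone (circle) and the range of its values in the other 7 tissues (grey bar); right, its values on lactating arrays 1 (circle) and 2 (square) and on the 2 reference against reference arrays (crosses), all as centred log ratios of unstated base. The 4 clones of CAV1, EMCN and CD300LG are in colour above the dotted line, and the ileum circle of each lies outside its bar, as it does for CD36, both POSTN clones, EPCAM and CD74 among others.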

How the data were processed

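The deposited table holds 1 log ratio per spot for 13 two-colour arrays. For the authors' background correction, normalization, logarithm base, ratio direction and dyes, the sources used here give nothing. Deposited array medians lay between -0.0997 and 0.0304 without exact 0. An exact 0 (124 to 373 spots per array) was treated as missing, arrays were centred on their median, and the 3 consecutive spots of a clone were averaged with a minimum of 2. For 1230 clones limma (version 3.58.1, R version 4.3.3) tested whether the mean of both lactating arrays differed from 0 in either direction, calling clones at a Benjamini-Hochberg adjusted p of 0.05. Each clone had 1 residual degree of freedom, and limma pooled 8.42 prior degrees of freedom over clones. Per the labels, lactating RNA was in channel 1 on each, which leaves any dye effect in the mean, and their spread may be technical. Other arrays had no replicate and no test. Intensities were not used here. Python 3.11.15, numpy 2.4.6, pandas 2.3.3 and matplotlib 3.10.9 did the rest.

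Members and lists were chosen with earlier results of these data known. Named genes were the members, the 3 clones most alike over the tissue arrays, and the measured genes of the lists. Alternatives were exact 0 as a value, no centring, medians of spots, arrays scaled to the same median absolute deviation (MAD), 1 or 3 spots, ESTs in place of clones, each lactating array left out, and the reference against reference arrays in the fit.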

Additional observations from a re-analysis of the deposited data

How the results depend on the processing

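CD300LG kept its sign in all 11 alternatives. Its call was lost with an exact 0 taken as a value (-0.93, adjusted p = 0.133), with arrays scaled to the same MAD (-0.64, adjusted p = 0.051), with the spread shared with the reference against reference arrays (-0.91, adjusted p = 0.0544) and relative to those arrays (-0.86, adjusted p = 0.213), all by limma. With 1 lactating array left out it ranged from -1.23 to -0.60, and the spread then came from the reference against reference arrays, with the lone array assumed to vary like them. The other clones were called in none of the 11. EMCN turned to 0.010 with medians of spots and CAV1 BE484461 to 0.11 relative to the reference against reference arrays, neither of them called, and CAV1 BE477622 was at 0.73 there (adjusted p = 0.264, limma), against 0.35.

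157 of 1230 clones were called (338 at an unadjusted p under 0.05). The count was 28 with an exact 0 taken as a value, 68 with scaled arrays, 65 with the shared spread, 22 in the contrast, and 14 to 43 with 1 lactating array left out. As deposited, 99 calls were positive and 126 negative, against 104 and 53 after centring.

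In ileum, scaling gave -0.45 and -0.73 for the CAV1 clones, 0.28 for EMCN and -0.21 for CD300LG, and the deposited values gave -0.26 for CD300LG. Tissue values moved by up to 0.29 units with scaling. The fit with array number as a block was not run, because the labels give the lactating arrays no number. Each log ratio on these arrays already pairs lactating and prepubertal gland within an array, and no further pairing was used.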
